A study of Mus musculus with 7 samples.

Results

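Gemcitabine and hydroxyurea, drugs that disturb DNA replication, were set directly against each other in cultured mouse haematopoietic stem cells, the bone marrow cells from which blood is renewed. The comparison used 2 libraries from gemcitabine, dosed at 0.5 µM (Gem 1 and Gem 2), and 2 from hydroxyurea, dosed at 100 µM (HU 1 and HU 2), 4 of the 7 libraries of the series. The other 3 libraries came from cells given the solvent DMSO, and their values are printed beside the drug values as the background. All cells were wild type, came from C57BL/6J mice, were sorted as CD48-CD150+LSK cells (lineage-negative cells with Sca-1 and c-Kit) and spent 48 h in culture. Per its title, the series is about DEK, a chromatin protein, replication stress tolerance and Fanconi anemia. Whether a group's libraries stem from separate animals or cultures is not stated in the labels, so a p-value here measures the spread among the libraries, and that spread may be technical. The doses differ, so every difference is one between the drugs at these doses.

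Gemcitabine is a deoxycytidine analogue that deoxycytidine kinase phosphorylates. Its triphosphate is built into DNA and stops the growing strand, and its diphosphate inhibits ribonucleotide reductase. Hydroxyurea inhibits the same reductase, which makes the deoxynucleotides for DNA synthesis, and replication forks then slow. Stalled forks load the checkpoint kinase ATR, and the Fanconi anaemia proteins act in the repair of DNA at blocked forks. Messenger RNAs of ribosomal proteins form a class of their own: most begin with a C and a run of pyrimidines (the 5′ terminal oligopyrimidine, or TOP, sequence), through which their translation responds to growth signals.

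Expression was deposited as FPKM, a level per transcript length and per size of the library, for 52224 genes. Of 20487 genes annotated as protein-coding, 7850 reached an FPKM of 5 in at least 2 of the 4 drug libraries and were tested. Values were scaled between libraries and compared as log2(scaled FPKM + 1); a log2 fold change here is the Gem mean minus the HU mean on that scale, which understates the change of low genes. Deposited FPKM summed to 703016 to 729258 in the Gem libraries, 647760 to 651315 in the HU libraries and 818775 to 832979 in the DMSO libraries, and the scaling factors of the 4 drug libraries ran from 0.956 to 1.06. The sequencing depth is unknown. Across the tested genes, Gem 1 and Gem 2 correlated at 0.991 and HU 1 and HU 2 at 0.988, and a Gem with an HU library at 0.987 to 0.989, so the HU libraries were about as like the Gem libraries as each other. The labelled cell type was checked against its markers. Kit (28.7 to 37.8 scaled FPKM over all 7 libraries) and Meis1 (25.8 to 32.8) were present. In contrast, Slamf1, which encodes CD150, did not exceed 1.00, and Cd48, whose protein the sort excluded, lay at 106 to 170. Cd34, on which the cells were not sorted, lay at 92.0 to 117 and is not counted for the label. Of 37 stem cell and sort markers, 19 passed the filter, and Tcf15 was listed at 0 in every library. Mecom, Hlf, Fgd5 and Hoxb5, of the same list, did not exceed 1.79, 2.81, 0.51 and 0.32. Mpo, from the neutrophil list, lay at 2042 to 4164. The markers thus bear out the stem cell label only in part, and the label names the cells that were sorted, before 48 h of culture. The summed level of 27 monocyte and macrophage markers was 39077 and 41710 in Gem and 40186 and 43509 in HU, against 23231 to 30952 in DMSO. Most of that sum was Lyz2 alone, at 32554 and 35241 in Gem, 33956 and 37073 in HU and 16704 to 24140 in DMSO. Over the 23 tested members, the median log2 level relative to all genes was -0.09 and 0.04 in Gem and -0.05 and 0.04 in HU. In DMSO it was -0.04 to 0.06, so the sum does not show a rise of these markers as a set. In bulk RNA, fewer cells of a type and less RNA per cell cannot be told apart.

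Few genes separated the 2 drugs. Only 1 gene of 7850 (0.0127%) passed limma's test at a Benjamini-Hochberg adjusted p below 0.05, and it was lower in Gem; 0 genes were higher. At an unadjusted p below 0.05 there were 748 genes (9.53%), 452 higher in Gem (5.76%) and 296 lower (3.77%). In 63 genes (0.803%) the Gem and HU libraries did not overlap and differed by at least 1.5 fold, 28 of them higher in Gem (0.357%) and 35 lower (0.446%). With the values as deposited and unscaled, which moved the median of all genes to 0.08, the same count was 67, with 47 higher and 20 lower. The median log2 fold change of all genes tested was -0.0028, its quartiles were -0.11 and 0.10, and 49.2% of genes lay above 0. With 2 libraries against 2, an exact permutation test of a single gene cannot give a p below 0.333.

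The gene that passed was Lbhd1 (chromosome 19, 8883732 to 8892627, plus strand, GRCm38). Its scaled FPKM was 5.02 in Gem 1, 3.64 in Gem 2, 17.9 in HU 1 and 17.8 in HU 2, and 8.57 to 13.2 in DMSO. Both Gem libraries lay under all DMSO libraries and both HU libraries above them. The log2 fold change was -1.83 ± 0.16 (SE), with a limma adjusted p of 0.0158. Lbhd1 overlaps 1810009A15Rik on the same strand, which lay the other way at 35.2 and 34.5 in Gem and 26.8 and 28.9 in HU, and the small RNA genes Snora57 and Mir5136 on the opposite strand. How fragments were shared among overlapping genes, and whether counting used strand, is not given in the sources used here, so the value of Lbhd1 is uncertain. The call was lost when all gene types were tested together (adjusted p = 0.0691) and without a filter on low values (adjusted p = 0.447).

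None of the other leading genes lower in Gem passed the adjusted test. Hba-a2, an alpha globin, was at 2.78 and 2.90 in Gem, 9.71 and 8.75 in HU and 6.64 to 12.5 in DMSO (log2 fold change -1.41 ± 0.17, limma adjusted p = 0.0819). It passed the filter through the HU libraries alone, where it is high, so it had to differ and its p is no support for the difference. The near-identical copy Hba-a1 was at 4.42 and 3.57 in Gem and 3.92 and 6.26 in HU, groups that overlap, so the values of the 2 copies are uncertain. Timeless, a fork protection protein that supports the replication checkpoint, was at 14.7 and 15.6 in Gem and 26.0 and 22.2 in HU (log2 fold change -0.63 ± 0.12, limma adjusted p = 0.221). Both drug groups lay above the DMSO libraries, which held 9.97 to 12.6. Marco, a scavenger receptor of macrophages, was at 32.6 and 42.6 in Gem and 71.0 and 55.7 in HU, with DMSO spanning 36.3 to 66.0. Fpr1, the formyl peptide receptor of phagocytes, was at 6.72 and 6.00 in Gem, 10.6 and 11.4 in HU and 14.9 to 19.4 in DMSO, so the drug groups were ordered but both under DMSO. Lrp1, a large endocytic receptor, was at 14.0 and 13.7 in Gem and 20.5 and 20.3 in HU. Brms1l, a subunit of a SIN3 histone deacetylase complex, was at 9.57 and 6.57 in Gem and 15.8 and 18.7 in HU. Scfd2 (9.85 and 11.5 in Gem, 18.7 and 17.6 in HU) and Ifrd2 (14.4 and 12.3 in Gem, 20.2 and 23.5 in HU) showed the same order. Rpp40, a subunit of the tRNA-processing enzyme RNase P, was at 6.81 and 5.14 in Gem and 11.21 and 12.03 in HU. Across these genes the DMSO libraries did not hold 1 position: they sat near Gem for Brms1l and Scfd2, and near HU for Hba-a2.

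**Figure D1:**
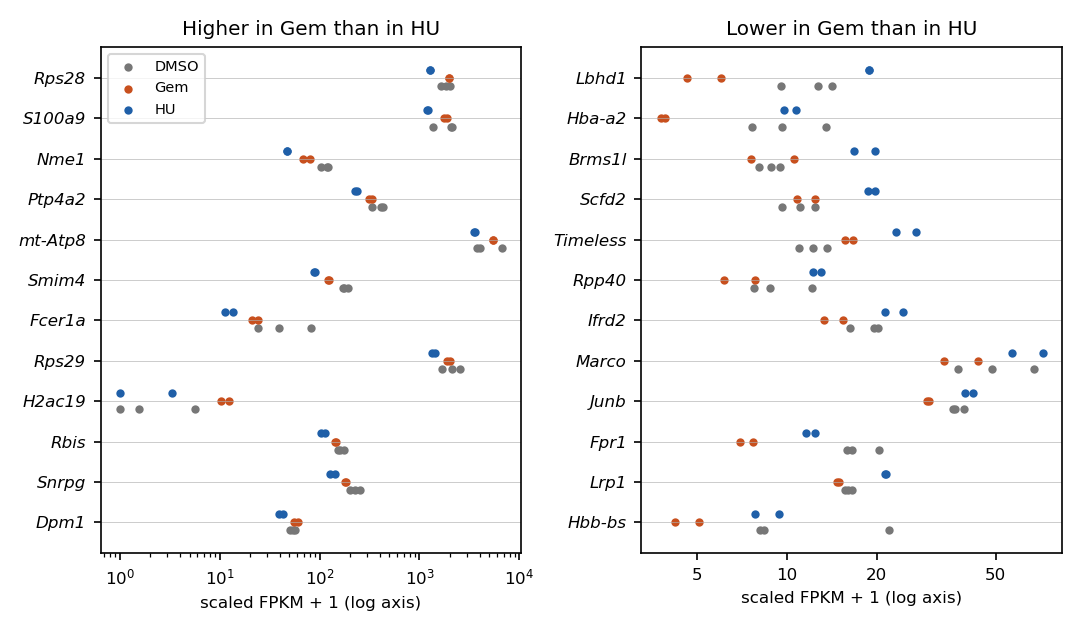
Scaled FPKM plus 1 (log axis) in each library for the 12 leading genes higher in Gem than in HU (left) and the 12 lower (right); each point is a library, grey for DMSO, orange for Gem and blue for HU. The Gem and HU points of a gene do not overlap, which the choice of genes required; Lbhd1, at the top right, is the gene that passed the adjusted test.

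None of the 12 leading genes higher in Gem passed the adjusted test. Nme1, a nucleoside diphosphate kinase that balances nucleoside triphosphates, was at 79.7 and 67.5 in Gem, 46.0 and 46.0 in HU and 103 to 120 in DMSO (log2 fold change 0.66 ± 0.10, limma adjusted p = 0.165). Nme1 overlaps the protein-coding gene Gm20390 on the same strand, so its value is uncertain. Gm20390 was at 30.6 and 24.0 in Gem, 37.1 and 24.9 in HU and 5.64 to 24.6 in DMSO. Nme2, the neighbour of Nme1, was at 194 and 227 in Gem and 176 and 158 in HU. Both kinases were lower in all 4 drug libraries than in any DMSO library, and lowest in HU. Ptp4a2, a protein phosphatase, was at 334 and 311 in Gem and 237 and 228 in HU. Dpm1, which makes the mannose donor for glycosylation, was at 59.5 and 54.6 in Gem and 41.8 and 37.8 in HU. Rbis, named for ribosome biogenesis, was at 145 and 143 in Gem and 101 and 112 in HU, and Smim4, a small membrane protein, at 120 and 122 in Gem and 87.6 and 88.1 in HU. These 4 genes were 1.35 to 1.42 fold higher in Gem. They were chosen for a small p and no overlap. That the difference is larger than the gap between the libraries of either drug is therefore no support for it. H2ac19, a histone H2A gene, was at 11.5 and 9.34 in Gem, listed at 2.36 and 0 in HU and at 0 to 4.70 in DMSO. It passed the filter through the Gem libraries alone, where it is high, so it had to differ and its place among the leading genes is no support for the difference. Its close copy H2ac18 lay at 23.0 and 30.4 in Gem and 26.2 and 35.7 in HU, groups that overlap, so the values of the pair are uncertain.

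Genes of the cytosolic ribosome, the machine that makes protein, lay higher in Gem as a group. All 80 of 80 ribosomal protein genes passed the filter and all 80 had a log2 fold change above 0. Their median was 0.36, a 1.28-fold higher level in Gem, beside -0.0028 for all genes, and single genes ran from 0.11 to 0.63. In 79 of 80 both Gem libraries lay above both HU libraries, where 21.0% of all genes did and 19.7% lay the other way. Of the 80, 74 had an unadjusted p below 0.05 higher in Gem, where 5.76% of all genes did. None passed at an adjusted p below 0.05; the smallest limma adjusted p was 0.0976, for Rps28. The members' mean levels spanned 111 to 2788 scaled FPKM over the drug libraries.

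Rps28 (chromosome 17, 33819027 to 33824562, minus strand), of the small subunit, was at 1970 in Gem 1, 1957 in Gem 2, 1270 in HU 1 and 1266 in HU 2, with DMSO at 1652 to 2021 (log2 fold change 0.63 ± 0.08). Rps29 was at 2000 and 1907 in Gem, 1423 and 1328 in HU and 1681 to 2570 in DMSO. Rps24 was at 1009 and 982 in Gem, 743 and 589 in HU and 1081 to 1261 in DMSO. For all 3 genes the HU libraries lay under every DMSO library. The Gem libraries lay within the DMSO range for Rps28 and Rps29 and under it for Rps24. Rpl8, of the large subunit, was the member whose groups overlapped, at 496 and 503 in Gem and 508 and 421 in HU.

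The list's level in each library was taken as the median over its members of the log2 value minus the gene's mean over the 4 drug libraries, less the same median over all genes. It was 0.21 in Gem 1, 0.14 in Gem 2, -0.08 in HU 1 and -0.28 in HU 2. The DMSO libraries held 0.37, 0.48 and 0.11. So DMSO 3 stood under both Gem libraries, and the DMSO libraries differed among themselves by about as much as Gem from HU. The 2 HU libraries also stood apart: without HU 1 the list's median over that of all genes was 0.45 with 32 members passing the adjusted test, and without HU 2 it was 0.25 with 0 passing. Quantile normalization lowered it to 0.20, with 76 of 80 members still above 0. Mast cell markers, calprotectin genes and gene length, whose values follow, moved with the same contrast, and the part of the cell markers in the ribosomal difference was not tested.

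**Figure D2:**
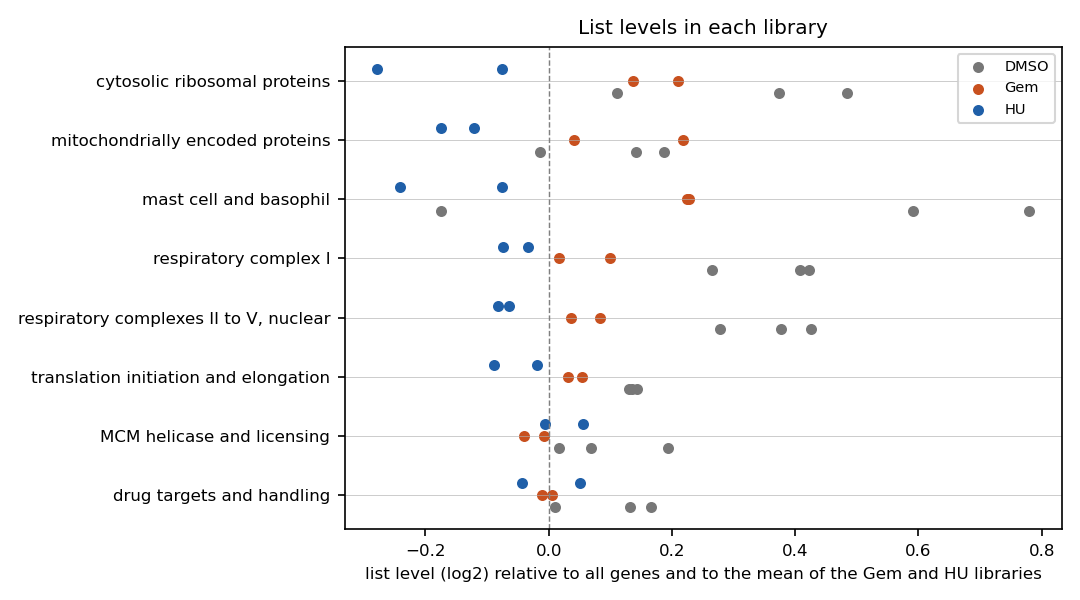
Level of 8 gene lists in each library (log2, relative to all genes tested and to the mean of the 4 drug libraries); each point is a library, grey for DMSO, orange for Gem and blue for HU. For the ribosomal protein list the Gem points (0.21 and 0.14) lie above the HU points (-0.08 and -0.28), and the DMSO points range from 0.11 to 0.48.

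The start sites of ribosomal protein genes are shown because their messages are known for the TOP sequence, which the comparison did not use. The RefSeq promoter table (GRCm38.p6) held 59 of the 80 genes. A TOP start was scored as a C at the annotated start followed by at least 4 bases that are each C or T, on the gene's own strand only. It was found in 14 of the 59 (23.7%), in 194 of 6425 tested genes with a promoter (3.02%) and in 813 of 27025 promoters in all (3.01%). Below are 4 of the 14, those with the smallest p, from 30 bases before to 20 bases after the start, 5′ to 3′, with the TOP run in capitals.
Rpl35a, chr16:33056452-33056501, plus strand: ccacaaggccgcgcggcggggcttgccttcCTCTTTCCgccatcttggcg
Rps6, chr4:86857348-86857397, minus strand: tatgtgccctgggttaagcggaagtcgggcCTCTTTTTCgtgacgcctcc
Fau, chr19:6057917-6057966, plus strand: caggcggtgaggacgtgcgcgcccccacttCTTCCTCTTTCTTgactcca
Rpl35, chr2:39005112-39005161, minus strand: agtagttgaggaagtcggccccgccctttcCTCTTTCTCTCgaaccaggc

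Their levels followed the list. Rpl35a was at 450 and 461 in Gem and 357 and 337 in HU, and Rps6, whose protein is a phosphorylation target of growth signalling, at 1202 and 1149 in Gem and 929 and 834 in HU. Fau, which encodes a fusion of a ubiquitin-like protein with a small subunit protein, was at 1599 and 1483 in Gem and 1223 and 1173 in HU. Rpl35 was at 799 and 814 in Gem and 668 and 569 in HU. The median log2 fold change was 0.37 for the 14 ribosomal protein genes with a TOP start and 0.36 for the other 45 with a promoter, so both medians were near equal. Outside the list, 180 tested genes with a TOP start had a median of -0.01, against -0.0045 for the other 6186. An annotated start can lie some bases from the one used: counting starts within 5 bases, 49.2% of the ribosomal protein genes and 24.3% of tested genes held the motif.

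Messages of the mitochondrial genome and of the nuclear respiratory chain lay on the same side as ribosomal proteins, by less. Of the 13 mitochondrially encoded proteins, 12 were above 0 and the median was 0.29; 7 had an unadjusted p below 0.05 higher in Gem and 1 lower, beside 5.76% and 3.77% of all genes, and none passed the adjusted test. mt-Atp8, an ATP synthase subunit, was at 5429 and 5440 in Gem, 3489 and 3605 in HU and 3744 to 6725 in DMSO (log2 fold change 0.62 ± 0.10, limma adjusted p = 0.192). It overlaps mt-Atp6, which was at 9769 and 8940 in Gem and 6781 and 7133 in HU. The exception was mt-Nd4l, a subunit of complex I, at 20.9 and 28.4 in Gem and 57.6 and 27.1 in HU, where HU 1 alone stood high. mt-Co1, of cytochrome c oxidase, was at 9509 and 8392 in Gem and 7365 and 8685 in HU, groups that overlap. Quantile normalization took the list's median over that of all genes from 0.30 to 0.09 and the correction for gene length and level to 0.15, and the share of all FPKM from mitochondrial genes was 8.34% and 8.31% in Gem and 10.2% and 7.43% in HU.

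In respiratory complex I, 34 of 37 nuclear genes were above 0 (median 0.13) and 10 had an unadjusted p below 0.05, all higher in Gem, where 5.76% of all genes did. In complexes II to V it was 36 of 41 (median 0.14), with 12, also all higher. None passed the adjusted test in either list. Examples, chosen after their values were seen, are Ndufb5 of complex I, at 117 and 107 in Gem and 89.6 and 85.0 in HU, and Atp5g2, which encodes the c ring of ATP synthase, at 178 and 180 in Gem and 142 and 141 in HU. For both lists the DMSO libraries stood above both drugs, at 0.27 to 0.43 relative to all genes, with Gem at 0.02 to 0.10 and HU at -0.08 to -0.03. The median of complexes II to V over that of all genes was 0.06 after a correction for gene length and level, 0.09 without HU 2, and 0.03 with quantile normalization, where 26 of 41 were above 0.

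Of 36 initiation and elongation factors, 30 were above 0, the median was 0.07, and 7 had an unadjusted p below 0.05, all higher in Gem, where 5.76% of all genes did. Eef1b2, the exchange factor for elongation factor 1A (also chosen after its values were seen), was at 390 and 352 in Gem and 295 and 256 in HU. Proteins of the mitochondrial ribosome had a median of 0.06, with 51 of 78 above 0, 6 at an unadjusted p below 0.05 higher in Gem (7.69%) and 2 lower, shares near those of all genes (5.76% and 3.77%). Among factors that assemble ribosomes, 19 of 44 were above 0, the median was -0.02, and 1 gene stood at an unadjusted p below 0.05 in each direction. In the spliceosome, 29 of 44 were above 0 (median 0.05), with 9 at an unadjusted p below 0.05 higher in Gem (20.5%) and 1 lower; the Sm core protein Snrpg led at 181 and 182 in Gem and 127 and 141 in HU. Of 36 proteasome subunits, 29 were above 0, the median was 0.05 and 1 reached an unadjusted p below 0.05.

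**Figure D3:**
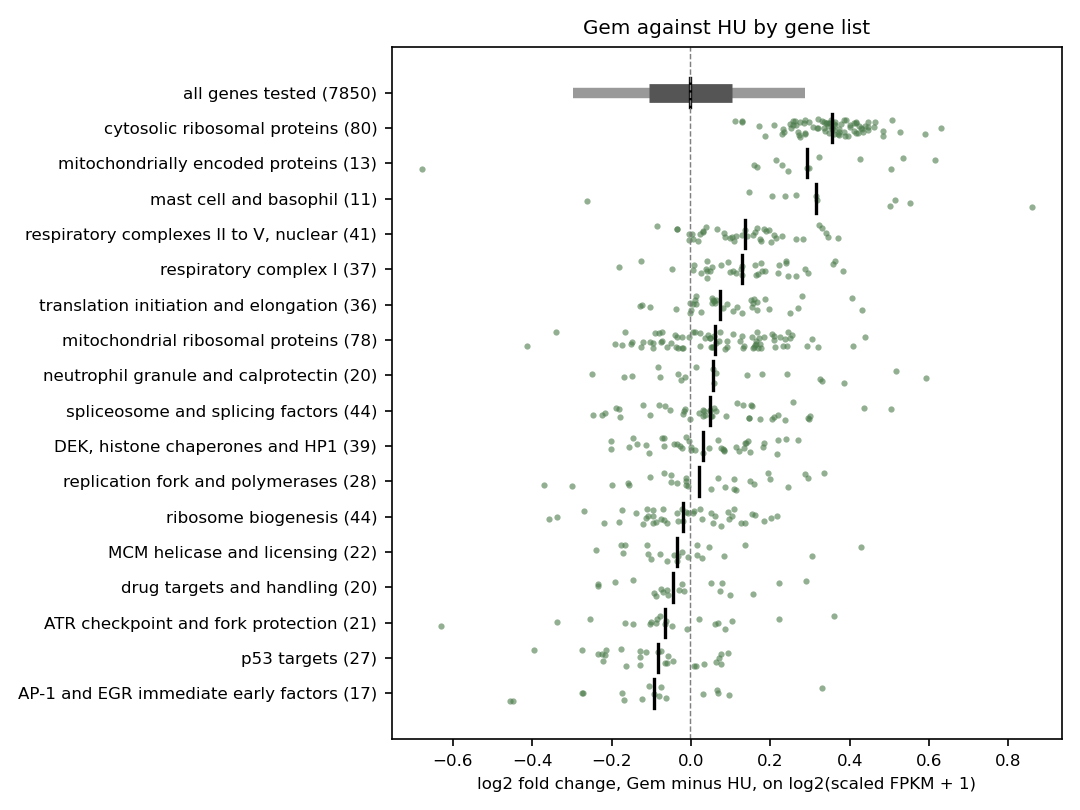
Log2 fold change (Gem minus HU) of every tested gene in 17 lists, 1 point per gene and a black bar at the list's median, with the number of genes in brackets; for all 7850 genes the dark bar spans the quartiles and the pale bar the 5th to 95th percentile. All 80 ribosomal protein genes lie right of 0, while the replication, checkpoint and drug handling lists are spread around it.

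Short genes as a whole were slightly higher in Gem, a measured trend that runs beside the group differences above. The trend was taken over tested genes outside the ribosomal protein and mitochondrially encoded lists. Their median log2 fold change was 0.11 for 185 genes under 1000 bases of exon and 0.04 for 856 genes of 1000 to 2000 bases. It was -0.02 for 2402 genes of at least 6000. Across genes, which are not independent replicates, log2 length and log2 fold change had a Pearson correlation of -0.156. Ribosomal protein genes stood above the others in every length bin, with medians of 0.25 to 0.45, although the longest bins hold 4 and 2 of them. After a correction for length and level the list's median over that of all genes was 0.26, and all 80 were still above 0. The part of length in the smaller lists was not tested beyond this correction.

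**Figure D4:**
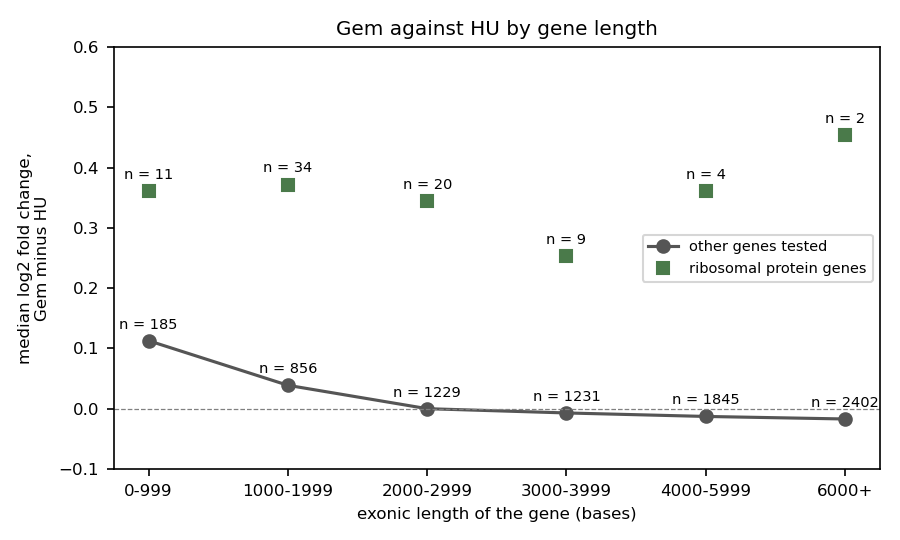
Median log2 fold change (Gem minus HU) by the exonic length of the gene in bases, for ribosomal protein genes (green squares) and other tested genes (grey circles), with the number of genes in each bin. Mitochondrially encoded genes are left out. The other genes go from 0.11 in the shortest bin to -0.02 in the longest, and the ribosomal protein genes lie between 0.25 and 0.45.

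Markers of mast cells and basophils, granulated cells armed by immunoglobulin E, were mostly higher in Gem. Of 22 markers 11 passed the filter, 10 of those were above 0, the median was 0.31, and 5 had an unadjusted p below 0.05, all higher in Gem, where 5.76% of all genes did. Fcer1a, the alpha chain of the immunoglobulin E receptor, was at 23.3 and 19.8 in Gem and 12.7 and 10.3 in HU (log2 fold change 0.86 ± 0.14, limma adjusted p = 0.192). In DMSO it was at 38.5, 80.3 and 23.1. The other 4 were Gata2, also a stem cell factor, Cpa3, a granule protease, Ms4a2, the beta chain of the same receptor, and Srgn, a granule proteoglycan. Members that did not follow include Mcpt8, at 69.0 and 33.7 in Gem and 46.1 and 37.9 in HU, groups that overlap. Prss34 overlapped too, at 217 and 85.7 in Gem and 89.5 and 101 in HU. Hdc lay the other way, at 20.1 and 16.9 in Gem and 22.6 and 22.0 in HU. The list's summed level was 928 and 706 in Gem, 658 and 639 in HU and 720 to 1689 in DMSO, so the DMSO libraries differed among themselves by more than the drugs.

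Neutrophil genes split. S100a9, of the antimicrobial calprotectin pair, was at 1900 and 1745 in Gem, 1194 and 1219 in HU and 1357 to 2131 in DMSO (log2 fold change 0.59 ± 0.09, limma adjusted p = 0.165). Its partner S100a8 was at 4336 and 3571 in Gem and 2706 and 2792 in HU. Of the 20 neutrophil markers tested, 12 were above 0 with a median of 0.06; 5 reached an unadjusted p below 0.05 higher in Gem and 0 lower, beside 5.76% and 3.77% of all genes. The summed level of the list was 17189 and 14810 in Gem and 15016 and 14315 in HU, groups that overlap. Monocyte and macrophage markers had a median of 0.01 over 23 genes, and none reached an unadjusted p below 0.05.

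Red cell and platelet markers gave no common direction. Hbb-bs, a beta globin, was at 3.22 and 4.07 in Gem, 8.41 and 6.84 in HU and 7.13 to 21.1 in DMSO (log2 fold change -0.89 ± 0.19, limma adjusted p = 0.26). It too passed the filter through the HU libraries alone, where it is high, so its p is no support for the difference. Its paralog Hbb-bt lay the other way, at 17.0 and 9.59 in Gem and 11.2 and 7.69 in HU. The remaining erythroid markers tested had values near equal: Gata1, the erythroid and megakaryocyte factor, was at 17.8 and 17.7 in Gem and 18.4 and 14.8 in HU. Ppbp, a platelet chemokine, was at 60.8 and 64.7 in Gem and 58.5 and 18.7 in HU, so its difference rests on HU 2: without that library the log2 fold change was 0.10, and without HU 1 it was 1.70. Of 24 lymphoid markers 3 passed the filter, and Cd8a and Rag1 were at most at 0.133 in every library.

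Among genes that handle the drugs or encode their target, values in Gem and HU lay close together. Of 25 listed genes 20 passed the filter, 7 were above 0, the median was -0.04, and 0 passed limma's adjusted test or reached an unadjusted p below 0.05. Rrm1, the large subunit of ribonucleotide reductase, was at 54.0 and 52.1 in Gem and 52.6 and 54.7 in HU (log2 fold change -0.02, 95% interval -0.21 to 0.18). Rrm2, the small subunit that hydroxyurea attacks, was at 57.8 and 66.1 in Gem and 68.6 and 61.4 in HU (-0.07, -0.30 to 0.16). The intervals leave room for a lower level in Gem by as much as their lower ends. Dck, the kinase that activates gemcitabine, was at 11.9 and 12.6 in Gem and 14.3 and 11.5 in HU (-0.06, -0.38 to 0.26). Slc29a1, a nucleoside transporter that lets gemcitabine in, was at 55.4 and 57.0 in Gem and 56.2 and 62.5 in HU (-0.07, -0.28 to 0.13). Samhd1, which breaks down deoxynucleotides, was at 41.8 and 38.6 in Gem and 38.1 and 33.8 in HU (0.16, -0.07 to 0.39). The widest interval in the list, -0.73 to 0.26, was that of Rrm2b, the p53-inducible reductase subunit, which lay at 3.26 to 5.25 in the drug libraries.

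**Figure D5:**
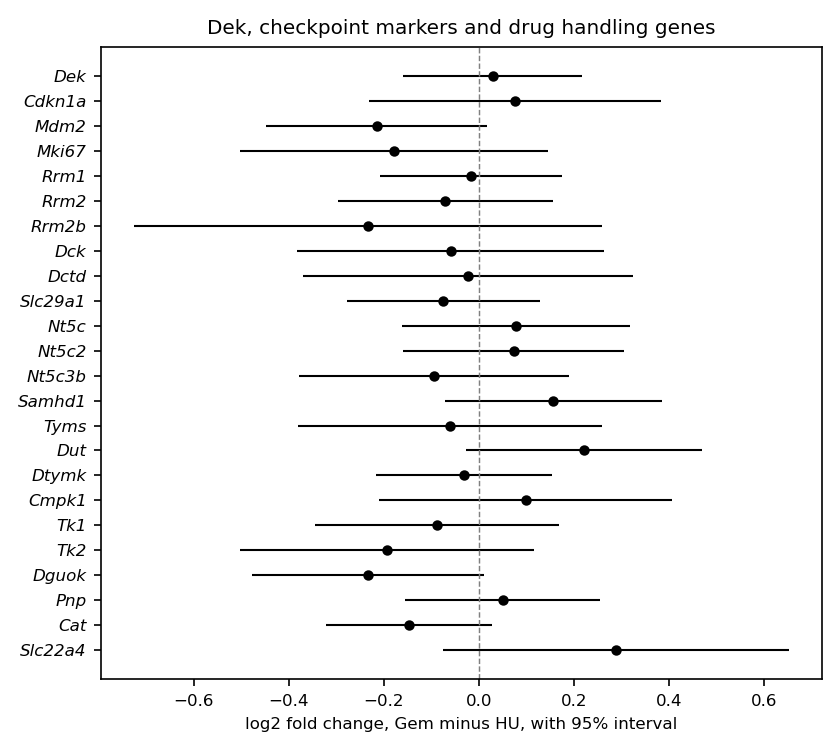
Log2 fold change (Gem minus HU) with its 95% interval from limma for Dek, Cdkn1a, Mdm2, Mki67 and the 20 tested genes that handle the drugs or deoxynucleotides. All intervals include 0; the fold changes of the 20 run from -0.23 (Rrm2b and Dguok) to 0.29 (Slc22a4).

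Dek, the chromatin protein of the series title, was at 86.3 and 94.2 in Gem, 90.3 and 86.4 in HU and 106 to 113 in DMSO. Its log2 fold change between the drugs was 0.03 (95% interval -0.16 to 0.22), and both drugs stood under all DMSO libraries. Over the 39 tested genes of DEK, histone chaperones and heterochromatin proteins, 23 were above 0 and the median was 0.03. Mki67, a marker of cycling cells, was at 8.98 and 8.15 in Gem and 9.43 and 10.2 in HU (-0.18, -0.50 to 0.15).

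Replication and repair lists had medians near 0, the ATR checkpoint list lying furthest from it. The median was -0.03 over 22 genes of the MCM helicase and its loading, 0.02 over 28 genes of the fork and its polymerases, and -0.0023 over 21 genes of the Fanconi anaemia and recombination pathways. For end joining, mismatch and excision repair the median was -0.03 over 24 genes, and none reached an unadjusted p below 0.05. There 25% of genes lay lower in Gem without overlap and 4.17% higher, beside 19.7% and 21.0% of all genes. In the ATR checkpoint list the median was -0.07, with 7 of 21 above 0. Without overlap, 38.1% of that list lay lower in Gem and 14.3% higher. In the same list 3 genes had an unadjusted p below 0.05, all lower in Gem, where 3.77% of all genes did. Those were Timeless, H2ax, the histone variant phosphorylated at broken DNA (91.5 and 83.9 in Gem, 97.9 and 112 in HU), and Atrip, the partner of ATR (9.91 and 11.6 in Gem, 13.2 and 14.5 in HU). In the list of the fork and its polymerases, 3 of 28 had an unadjusted p below 0.05 higher in Gem (10.7%) and 1 lower. Of all genes, 5.76% were higher and 3.77% lower at that threshold. Pold1, the catalytic subunit of DNA polymerase delta (chosen after its values were seen), was at 29.3 and 30.6 in Gem and 41.2 and 36.9 in HU, with DMSO at 29.96 to 32.1. None of the replication and repair genes passed the adjusted test.

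Stress response lists also had medians near 0, though most tested p53 targets and AP-1 and EGR factors lay lower in Gem. Of 27 tested p53 targets, 8 were above 0, the median was -0.08, and none reached an unadjusted p below 0.05. Cdkn1a, the p53-induced inhibitor of cell cycle kinases, was at 58.0 and 68.9 in Gem, 52.4 and 68.5 in HU and 73.1 to 83.9 in DMSO. Mdm2, the ubiquitin ligase of p53, was at 30.1 and 26.6 in Gem and 33.0 and 32.9 in HU (-0.22, -0.45 to 0.02). Among AP-1 and EGR factors, which are induced within minutes of a stimulus, 5 of 17 were above 0 and the median was -0.09. Junb, an AP-1 subunit, was at 28.5 and 28.9 in Gem, 38.4 and 41.2 in HU and 35.1 to 38.1 in DMSO (log2 fold change -0.46 ± 0.09, limma adjusted p = 0.26). Jun, another subunit (chosen after its values were seen), was far above DMSO under both drugs. It was at 136 and 151 in Gem, 172 and 152 in HU and 12.2 to 17.1 in DMSO, and its difference from DMSO was not tested. NF-kB and inflammatory genes had a median of -0.04 over 27 genes, and interferon response genes 0.08 over 23.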

How the data were processed

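Per the labels' protocols, RNA was extracted with a miRNeasy kit, amplified by Geo-seq and made into TruePrep libraries. The authors deposited FPKM for 7 libraries. Build mm10 and the tools DESeq2, HTSeq, Cufflinks 2.1.1 and Bowtie 0.12.9 are named, without roles, per the submitters' processing notes; which of them made the FPKM is not given in the sources used here. FPKM hold no counts, so no count test was run and no depth is known.

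Gene types, lengths and coordinates came from GENCODE M21 (GRCm38) by symbol, then RefSeq; 2595 of 52224 symbols (4.97%) had no match, and 51 of them that passed the filter were left out. Libraries were scaled by a trimmed mean of log ratios (30% of ratios and 5% of levels trimmed) against the geometric mean of the 4 drug libraries. limma 3.58.1 in R 4.3.3 fitted log2(scaled FPKM + 1) of these 4 libraries with no block, a mean-variance trend and 2 residual degrees of freedom, two-sided, with Benjamini-Hochberg adjustment over 7850 genes and a threshold of 0.05. The step was tested on simulated data, with independent normal noise at the spread limma estimated for each gene. It called 77.1% of the genes set 1.5 fold apart. Such noise suits the method, so that share does not tell how many real changes were missed.

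The comparison, the 44 gene lists and the rule for named genes were chosen with earlier results of these data known. The rule took Dek, Cdkn1a, Mdm2, Mki67, the tested drug handling genes, and 12 leading genes each way: those past the threshold, filled by the smallest p among genes whose groups do not overlap. It added up to 3 members of each list that differ by 1.5 fold without overlap. Lists have no test: counts and medians stand beside those of all genes. Alternatives changed the scaling, pseudocount, filter, gene types, trend, libraries fitted, block and length correction, and left out each library. Figures were drawn with matplotlib 3.10.9 in Python 3.11.15.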

Additional observations from a re-analysis of the deposited data

How the results depend on the processing

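With 2 libraries a group and unknown depth, low genes and small differences are poorly resolved. The number of genes called by limma was 2 on the TPM scale, with quantile normalization, without the mean-variance trend and with the correction for length and level. It was 3 with the filter at an FPKM of at least 1, 3 with all gene types (all higher in Gem, Lbhd1 not among them), and 0 of 19032 without a filter, where 1760 had an unadjusted p below 0.05. Leaving out 1 library gave 3 to 59 calls, against 1 with all: 3 without Gem 1, 11 without Gem 2, 59 without HU 1 (55 higher) and 4 without HU 2. The lone library is then assumed to vary like the other group. With the replicate number as a block there were 201 calls, 155 higher in Gem and 46 lower, including 66 ribosomal protein genes. Nothing in the labels says that the numbers pair the samples. The deviations of Gem 1 and HU 1 from their group means correlated at 0.0041 across genes. With 2 libraries a group this value cannot decide whether a Gem and an HU library share an animal or culture. The cause of these shifts was not tested. Genes that differ by 1.5 fold without overlap numbered 246 with the filter at 1, 390 with no filter and 138 with all gene types, where more genes enter, and 120 to 143 with 1 library left out, where fewer libraries must not overlap; on the TPM scale, where the median of all genes was -0.05, they were 20 higher and 42 lower. Of 42 lists with at least 5 members, 5 had a median more than 0.1 from that of all genes, and all 5 were higher in Gem. The number was 15 with no filter and 4 to 10 with 1 library left out (10 without Gem 2, 9 without HU 1). Quantile normalization gave 2 lists higher and 2 lower, and the correction for length and level 3 higher and 3 lower. Lbhd1 was called in 13 of 15 alternatives. The ribosomal protein list kept its direction in all 15, with a median over all genes of 0.20 to 0.45. Leaving out the trend, fitting all 7 libraries or adding the block cannot change a fold change. For these settings the same direction was therefore fixed in advance.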

Other observations

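Values in this paragraph were chosen after they were seen and were not tested as a group. Mir1982, a microRNA gene outside the tested set, was listed at 51.4 and 58.6 scaled FPKM in Gem and at 0 in HU and DMSO. FPKM divides by length, so few fragments of such a short gene can give a value of this size. Another microRNA gene, Mir5136, was listed at 61.2 in Gem 2 and at 0 in every other library. The value of Mir1982 is therefore uncertain. Slc6a4, the serotonin transporter, Cdkn3, a phosphatase of cell cycle kinases, and Usp2, a deubiquitinase, were among the 28 genes higher in Gem without overlap, with log2 fold changes of 1.04, 0.80 and 0.81. Kdm5c, a histone demethylase, Dync1h1, the heavy chain of cytoplasmic dynein, and Gcn1, an activator of the kinase GCN2, were among the 35 lower genes, at -0.66, -0.69 and -0.60. Cd74, the invariant chain of class II antigen presentation, was at 376 and 373 in Gem, 540 and 429 in HU and 261 to 361 in DMSO, whereas the eosinophil granule gene Prg2 was at 1454 and 1323 in Gem, 1218 and 1142 in HU and 551 to 968 in DMSO. None of the tested genes named here passed limma's adjusted test.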
